A study of Mus musculus with 5 samples.

Results

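Macrophages and monocytes carry a shared set of genes for sensing, engulfing and digesting particles, and 36 such genes were followed here in endothelial cells sorted from the mouse thymus. The genes were taken by name: every probe set (a group of short probes for 1 transcript) whose platform annotation gave 1 of the 36 symbols was read on all 5 arrays. All 36 genes were found, with 56 probe sets, out of 12393 genes and 22690 probe sets on the array. The list was assembled with the day 4 against day 0 differences of these same arrays in view, so those differences are given below as a description of the genes and not as evidence for them. Of the 36 genes, 26 had 1 probe set and 10 had several. Where there were several, the probe set with the highest mean stands for the gene.

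The 2 day 4 arrays came from female C57BL/6J mice, 6 to 8 weeks old, taken 4 days after sublethal total body irradiation with 550 cGy and given no hematopoietic rescue. The 3 day 0 arrays came from untreated female C57BL/6J mice of the same age. In both groups thymus cells were depleted of CD45-positive cells on magnetic columns, and CD45-negative, EpCAM-negative, VE-cadherin-positive cells were then sorted. Cells of several mice were pooled for each array, and the labels called the day 4 cells CD45- thymic stromal cells and the untreated ones thymic endothelial cells. The sort is thus aimed at endothelium, and the gene list at another kind of cell. Cdh5, which encodes VE-cadherin, read 11.38 and 11.40 on the day 4 arrays, against 11.57, 11.51 and 11.64 on the day 0 arrays, and all 18 endothelial markers examined lay above the level filter on at least 2 arrays. The filter, a log2 value of 4 on at least 2 arrays, marks where a probe set is treated as measurable.

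Macrophages depend on the growth factor receptor encoded by Csf1r and on the transcription factor PU.1, which is encoded by Spi1. They bind antibody-coated particles through Fc receptors, whose signal passes through small adaptor proteins with an ITAM, a tyrosine motif that recruits kinases. The engulfed particle meets an oxidase that makes superoxide and then lysosomal proteases. In the thymus such cells clear the many thymocytes that die during selection. Some of the genes are not restricted to macrophages: cathepsin B is made by most cells, and the mannose receptor gene Mrc1 and the Fc receptor gene Fcgr2b are also known from sinusoidal endothelium.

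Promoter windows were examined because most of the genes lay on the same side of the untreated arrays together and PU.1 is a shared regulator of many of them. RefSeq windows of 300 bases on build GRCm38.p6, lying mostly upstream of a transcription start site, were found for 25 of the 36 genes. The letters GAGGAA, the core of the PU.1 site, were searched on both strands, so that TTCCTC also counts. They stood in the windows of 16 of these 25 genes (64.0%), against 30.8% of the 7207 genes past the level filter that have a window and 31.3% of all 27025 genes with one. The letters CACGTG, an E-box bound by the lysosomal regulators TFEB, TFE3 and MITF, stood in 1 of the 25 (4.00%), against 11.9% of genes past the filter and 8.09% of all genes with a window. The 2 motifs do not overlap each other. A match describes the letters in the window and shows no binding. The 5 windows printed here, chosen after the values were seen, are those of 2 Fc receptor genes and a protease gene with large differences, of Itgam, which stayed under the level filter, and of the gene with the E-box. Capitals mark the matches.
Fcgr1, chr3:96293920-96294219, minus strand: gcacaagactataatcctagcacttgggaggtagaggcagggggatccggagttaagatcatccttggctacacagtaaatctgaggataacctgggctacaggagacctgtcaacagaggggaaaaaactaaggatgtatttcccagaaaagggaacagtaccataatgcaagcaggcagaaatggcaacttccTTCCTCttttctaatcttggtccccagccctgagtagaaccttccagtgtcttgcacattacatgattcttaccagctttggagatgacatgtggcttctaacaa
Fcgr3, chr1:171059345-171059644, minus strand: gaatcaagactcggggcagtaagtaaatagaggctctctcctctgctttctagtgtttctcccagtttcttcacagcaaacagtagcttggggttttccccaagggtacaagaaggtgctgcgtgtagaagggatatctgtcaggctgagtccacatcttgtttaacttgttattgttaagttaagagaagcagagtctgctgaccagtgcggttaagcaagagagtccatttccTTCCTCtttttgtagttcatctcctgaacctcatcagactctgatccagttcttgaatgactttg
Ctss, chr3:95526536-95526835, plus strand: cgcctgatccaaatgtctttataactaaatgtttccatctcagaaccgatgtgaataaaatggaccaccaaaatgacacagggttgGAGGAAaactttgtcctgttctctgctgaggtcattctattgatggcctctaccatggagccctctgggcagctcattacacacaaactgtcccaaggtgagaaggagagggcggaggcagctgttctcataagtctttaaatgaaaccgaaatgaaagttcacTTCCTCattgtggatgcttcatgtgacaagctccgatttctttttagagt
Itgam, chr7:128062390-128062689, plus strand: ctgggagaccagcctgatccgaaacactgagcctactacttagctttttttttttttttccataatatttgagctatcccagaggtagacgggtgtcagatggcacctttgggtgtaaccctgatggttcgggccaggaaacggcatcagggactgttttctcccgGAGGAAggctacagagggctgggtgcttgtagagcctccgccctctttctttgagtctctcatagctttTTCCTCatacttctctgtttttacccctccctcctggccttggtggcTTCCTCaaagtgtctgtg
Lgmn, chr12:102439043-102439342, minus strand: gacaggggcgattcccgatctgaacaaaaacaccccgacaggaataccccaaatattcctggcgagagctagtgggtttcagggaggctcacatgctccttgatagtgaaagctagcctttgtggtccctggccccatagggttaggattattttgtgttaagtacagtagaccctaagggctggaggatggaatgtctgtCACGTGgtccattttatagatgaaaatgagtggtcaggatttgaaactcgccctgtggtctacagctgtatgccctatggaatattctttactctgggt
Fcgr1 and Fcgr3 each held 1 match on the opposite strand, beginning at base 196 and base 236 of the window. Ctss held 2 matches and Itgam 3, and the probe set of Itgam, which held the most matches of these 5, stayed under the level filter on every array. Other genes with large differences held no match to the PU.1 core, among them Folr2, Lyz2, Mpeg1 and Fcer1g, with log2 changes of 1.78, 1.75, 1.56 and 1.10.

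Across the 36 genes, the median log2 change (day 4 minus day 0) was 1.01, against -0.016 over all 12393 genes. Both day 4 arrays lay above all 3 day 0 arrays for 28 of the 36, both lay below for 1 (Ptpn6), and the groups overlapped for 7. Over all genes, both day 4 arrays lay above for 16.2% and below for 20.4%. A log2 change above 1 was found for 18 of the 36, against 1.16% of all genes. The level filter was passed by 32 of the 36. It was missed by Maf, Cybb, Ncf1 and Itgam. Of the 32, Fcgr1, Clec10a and Pld4 had a day 0 mean under the filter, so the size of their difference rests on background values. Ms4a6d had a day 0 mean of 4.03 but lay under the filter on day 0 replicates 2 and 3 (3.72 and 3.93). The size of its difference thus rests partly on background values. Fcgr1, Clec10a, Pld4 and Ms4a6d passed the filter only because of the day 4 arrays. In the limma fit over all 8940 genes past the filter, 8 of the 32 had an adjusted p under 0.05, all higher at day 4. Over all genes tested 2.85% were called, 1.50% higher and 1.35% lower. Because these values chose the genes, nothing is read from that count. The 8 were Fcgr1, Fcgr3, Ctsb, Lgmn, Clec10a, Folr2, Ms4a6d and Ms4a7. More cells of a type and more RNA per cell cannot be told apart in bulk RNA of this kind.

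**Figure D1:**
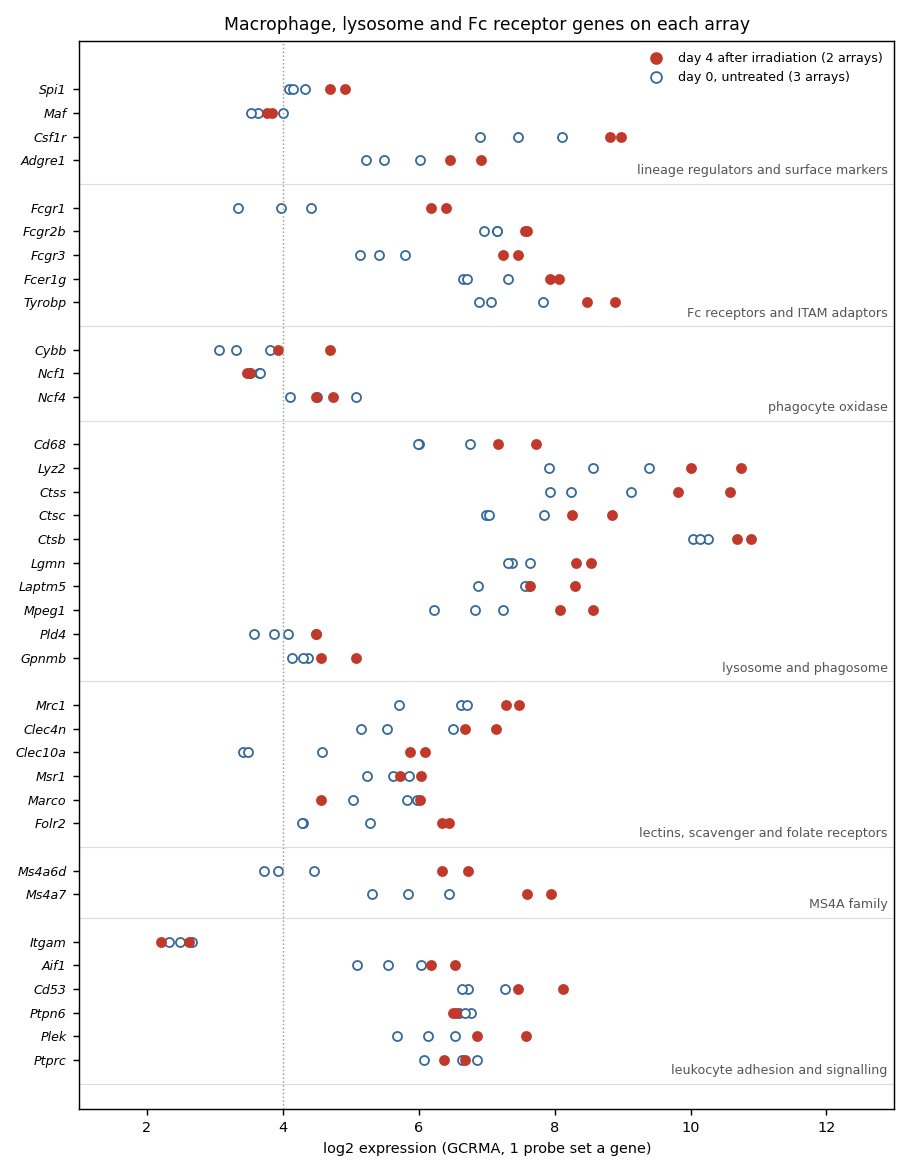
Log2 expression (GCRMA) of the 36 genes on each array, 1 probe set a gene, grouped by role; filled points are the 2 day 4 arrays, open points the 3 day 0 arrays, and the dotted line is the level filter at 4. Filled points lie right of all open points for 28 genes, while Ncf1, Ncf4, Itgam and Ptprc are among the 7 genes whose groups overlap; levels of different probe sets are not comparable with each other.

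The regulators differed among themselves. Csf1r, the receptor for macrophage colony-stimulating factor, read 8.81 and 8.97 at day 4, against 8.11, 6.91 and 7.46 at day 0. Both day 4 arrays lay above the day 0 arrays, with a log2 change of 1.40 ± 0.33 (SE), although the day 0 arrays themselves spanned 1.21 log2 units. Its other probe sets gave 1.18 and 0.46, and on the last of these the groups overlapped. Spi1 read 4.69 and 4.92 after irradiation, against 4.09, 4.15 and 4.33 in untreated cells. These values sat just above the filter, the groups did not overlap, and the log2 change was 0.62 ± 0.12 (SE). Maf, a transcription factor of tissue macrophages, read 3.76 and 3.84 on the day 4 arrays, against 3.63, 3.99 and 3.54 on the day 0 arrays. It stayed under the filter on every array, and its groups overlapped. Adgre1, which encodes the macrophage surface marker F4/80, read 6.92 and 6.47 at day 4, against 6.02, 5.23 and 5.48 at day 0, a log2 change of 1.12 ± 0.25 (SE). The lower of its day 4 arrays lay 0.448 above the highest day 0 array.

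All 5 Fc receptor and adaptor genes lay higher on both day 4 arrays. Fcgr1, the high-affinity receptor for IgG, read 6.40 and 6.17 after irradiation, against 4.42, 3.34 and 3.98 in untreated cells. The gap between the lowest day 4 and the highest day 0 array was 1.76, and the log2 change was 2.37 ± 0.30 (SE). Fcgr3, a low-affinity activating receptor, read 7.46 and 7.24 on the day 4 arrays, against 5.80, 5.13 and 5.42 on the day 0 arrays. Here too the groups stood more than 1 log2 unit apart (gap 1.44), with a log2 change of 1.90 ± 0.20 (SE). Fcgr2b, the inhibitory IgG receptor, read 7.57 and 7.59 at day 4, against 7.16, 6.95 and 7.15 at day 0. Its log2 change of 0.49 ± 0.10 (SE) was the smallest of the 5, and its 3 other probe sets gave 1.43, 1.24 and 0.84. The day 4 arrays were higher on each of these sets, so they disagree in size and not in direction. The platform's suffixes mark some of these sets as sharing probes with similar transcripts, and the outer parts of Fcgr2b and Fcgr3 are close in sequence.

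Both adaptor genes lay higher at day 4. Fcer1g, the gamma chain that carries the ITAM for Fcgr1 and Fcgr3, read 8.06 and 7.93 after irradiation, against 7.32, 6.66 and 6.72 in untreated cells. Tyrobp, which encodes the adaptor DAP12, read 8.89 and 8.47 on the day 4 arrays, against 7.82, 6.88 and 7.06 on the day 0 arrays. Their log2 changes were 1.10 ± 0.21 and 1.42 ± 0.29 (SE). For both, day 0 replicate 1 stood well above the other untreated arrays and closest to the day 4 arrays.

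The oxidase genes did not lie on 1 side together. Cybb, the catalytic subunit gp91phox, read 4.69 and 3.93 at day 4, against 3.81, 3.31 and 3.06 at day 0. Only 1 of its arrays passed 4, the groups were 0.115 apart, and the log2 change was 0.91. Ncf1, which encodes the cytosolic organizer p47phox, read 3.51 and 3.47 after irradiation, against 3.64, 3.51 and 3.66 in untreated cells. All of its values lay under the filter, and its second probe set lay there as well with a log2 change of -0.17. Ncf4, which encodes the cytosolic subunit p40phox, read 4.73 and 4.49 on the day 4 arrays, against 5.08, 4.10 and 4.50 on the day 0 arrays. Its highest value was on an untreated array, and the log2 change was 0.05 ± 0.28 (SE).

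Each of the 10 lysosome and phagosome genes was higher on both day 4 arrays, with log2 changes of 0.55 to 1.77. Ctss, which encodes the protease cathepsin S of antigen-presenting cells, read 10.58 and 9.82 at day 4, against 9.13, 7.94 and 8.24 at day 0. Lyz2, the lysozyme of macrophages and neutrophils, read 10.75 and 10.00 after irradiation, against 9.39, 7.92 and 8.57 in untreated cells. These 2 genes had the largest differences of the group, 1.77 and 1.75, and also the widest day 0 spread, 1.19 and 1.48 between the extreme untreated arrays. Lyz2 is close in sequence to Lyz1, so their probe sets may share signal. Mpeg1, which encodes the pore-forming perforin-2, read 8.56 and 8.08 on the day 4 arrays, against 7.24, 6.22 and 6.82 on the day 0 arrays. Cd68, a heavily glycosylated protein of the lysosome membrane, read 7.73 and 7.17 at day 4, against 6.75, 6.00 and 5.99 at day 0. Ctsc, the protease that activates other granule proteases, read 8.84 and 8.26 after irradiation, against 7.84, 6.98 and 7.04 in untreated cells. In these 3 genes the untreated arrays again spread widely, yet none reached a day 4 array.

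The proteases that are widely made outside macrophages had smaller differences than Ctss and a smaller spread between arrays. Ctsb read 10.89 and 10.68 on the day 4 arrays, against 10.26, 10.03 and 10.13 on the day 0 arrays. Its log2 change of 0.64 ± 0.12 (SE) rested on a day 0 SD of 0.12 (n = 3) and a day 4 SD of 0.15 (n = 2), and its 3 other probe sets gave 0.29, 0.60 and 0.75. Lgmn, which encodes the asparaginyl protease legumain, read 8.53 and 8.32 at day 4, against 7.64, 7.38 and 7.32 at day 0, a log2 change of 0.98 ± 0.13 (SE). Ctsb passed the limma threshold narrowly: it lost its call whichever array was left out, under median centring, with array weights, with no level filter, and with its probe sets averaged or tested one by one. Laptm5, a lysosomal membrane protein of blood cells, read 8.30 and 7.63 after irradiation, against 7.62, 6.86 and 7.56 in untreated cells. Its groups were only 0.0131 apart. The low-level genes were Pld4, an endolysosomal exonuclease, at 4.48 and 4.48 on the day 4 arrays, against 4.08, 3.87 and 3.58 on the day 0 arrays, and Gpnmb, a glycoprotein of lipid-loaded macrophages, at 5.08 and 4.56 at day 4, against 4.37, 4.13 and 4.30 at day 0. The difference of Gpnmb moved with the day 4 arrays: it was 0.81 when day 4 replicate 2 was dropped and 0.29 when day 4 replicate 1 was.

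**Figure D2:**
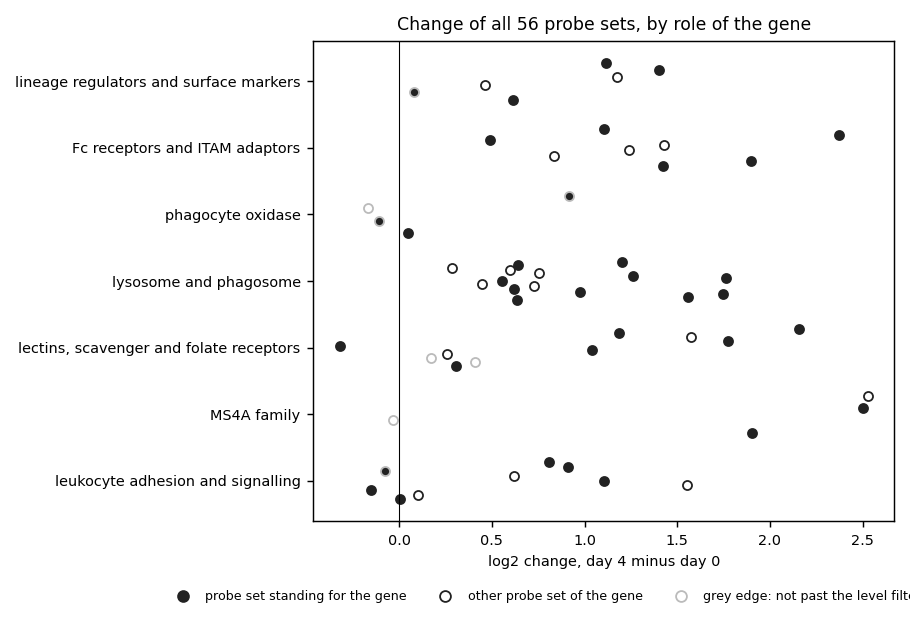
Log2 change (day 4 minus day 0) of all 56 probe sets, by role of the gene; filled points stand for the gene, open points are its other probe sets, and a grey edge marks probe sets not past the level filter. Points of the lineage, Fc receptor and lysosome groups all lie above 0, while those of the oxidase and leukocyte groups lie on both sides of it. The lectin and MS4A groups also lie on both sides, through Marco (-0.32) and 1 probe set of Ms4a6d (-0.04).

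Among lectins, scavenger and folate receptors, 4 of 6 genes lay higher on both day 4 arrays. Clec10a, a galactose-binding lectin, read 5.87 and 6.09 after irradiation, against 4.57, 3.41 and 3.48 in untreated cells, and Folr2, the folate receptor of resident macrophages, read 6.35 and 6.45 on the day 4 arrays, against 5.29, 4.30 and 4.29 on the day 0 arrays. For each, the day 4 and day 0 arrays stood more than 1 log2 unit apart, with log2 changes of 2.16 and 1.78. Clec4n, which encodes the fungal receptor dectin-2, read 7.14 and 6.68 at day 4, against 6.50, 5.14 and 5.53 at day 0. Mrc1 read 7.29 and 7.47 after irradiation, against 6.62, 6.70 and 5.70 in untreated cells. Its lowest untreated array was replicate 3, where most of the other genes had theirs on replicate 2. Of the class A scavenger receptors, neither was separated on the probe set that stands for the gene. Msr1 read 5.72 and 6.04 on the day 4 arrays, against 5.85, 5.63 and 5.24 on the day 0 arrays, and the groups overlapped. Of its 3 other probe sets 1 overlapped as well, and 2 that did not pass the filter lay higher on both day 4 arrays by gaps of 0.0516 and 0.156. Marco read 4.56 and 6.02 at day 4, against 5.83, 5.97 and 5.03 at day 0. Its 2 day 4 arrays were 1.46 apart, and the log2 change was -1.05 without day 4 replicate 2 and 0.41 without day 4 replicate 1.

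The MS4A genes encode membrane proteins with 4 crossings, and both lay far apart between the groups. Ms4a6d read 6.73 and 6.34 after irradiation, against 4.45, 3.72 and 3.93 in untreated cells, a log2 change of 2.50 ± 0.23 (SE). Another probe set gave 2.53, from day 0 values of 1.96 to 2.45. The last one read near the bottom of the scale on every array with a change of -0.04. The mean of its 3 probe sets changed by 1.67. Ms4a7 read 7.94 and 7.59 on the day 4 arrays, against 6.44, 5.31 and 5.85 on the day 0 arrays, a log2 change of 1.90 ± 0.32 (SE).

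Genes shared with other leukocytes were mixed. Ptprc, which encodes CD45, the marker used to remove blood cells, read 6.68 and 6.38 at day 4, against 6.86, 6.08 and 6.63 at day 0. Its groups overlapped, and its log2 change of 0.0049 was -0.22 without day 0 replicate 2 and 0.17 without day 0 replicate 1. Ptpn6, the phosphatase SHP-1 that acts downstream of inhibitory receptors, read 6.51 and 6.55 after irradiation, against 6.77, 6.60 and 6.68 in untreated cells. Both day 4 arrays lay below, by a log2 change of -0.15 ± 0.10 (SE), and its other probe set gave 0.10 with overlapping groups. Itgam, the CD11b integrin chain of monocytes, neutrophils and many macrophages, read 2.21 and 2.61 on the day 4 arrays, against 2.66, 2.48 and 2.33 on the day 0 arrays. All 5 values lay far under the filter. Cd53, a tetraspanin of blood cells, read 8.12 and 7.46 at day 4, against 7.27, 6.72 and 6.64 at day 0. Plek, a protein kinase C substrate, read 7.58 and 6.86 after irradiation, against 6.53, 5.68 and 6.14 in untreated cells. Aif1, an actin-binding protein of macrophages, read 6.54 and 6.18 on the day 4 arrays, against 6.03, 5.08 and 5.55 on the day 0 arrays. These last 3 genes had log2 changes of 0.91, 1.10 and 0.81 with no overlap.

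The spread among the arrays of 1 group was not used to choose the genes, and it was shared by most of them. Among the untreated arrays, replicate 1 was the highest for 31 of the 36 genes (86.1%), against 37.6% of all genes. Replicate 2 was the lowest for 24 of the 36 (66.7%), against 33.2% of all genes. The median gene stood 0.742 log2 units higher on day 0 replicate 1 than on day 0 replicate 2. Among the day 4 arrays, replicate 1 was the higher one for 25 of the 36 (69.4%), against 43.1% of all genes, and the median difference between the 2 arrays was 0.232. The exceptions included Csf1r, Clec10a, Folr2, Mrc1 and Spi1, which were slightly higher on day 4 replicate 2. The genes share arrays, so they are not independent of each other and no test is given. Set against day 0 replicate 1 alone, the day 4 mean differed by a median of 0.679 for the 36, against -0.027 over all genes. It was 2.09 for Ms4a6d, 1.87 for Fcgr1 and -0.33 for Ptprc. Unlike the spread within a group, this is again the contrast that chose the genes, so nothing is read from it.

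**Figure D3:**
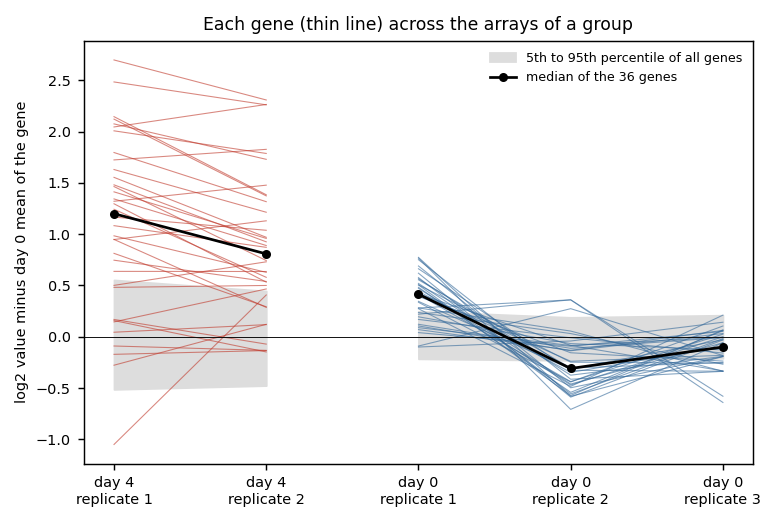
Each of the 36 genes on each array as its log2 value minus its own day 0 mean (thin lines, red for day 4 and blue for day 0); the black line is their median and the grey band spans the 5th to 95th percentile of all 12393 genes. The median is 1.20 and 0.81 for day 4 replicates 1 and 2, against 0.42, -0.31 and -0.10 for day 0 replicates 1 to 3.

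The limma calls varied with the arrays used. With all arrays 8 of the 36 were called. Dropping day 0 replicate 1 gave 17, and dropping day 0 replicate 2 or day 4 replicate 2 gave 4 each. The count was 0 without day 4 replicate 1, where 20 had an unadjusted limma p under 0.05, and 0 without day 0 replicate 3, where 24 did. Array weights left 2 calls, Fcgr3 and Ms4a6d, and 25 genes at an unadjusted p under 0.05. Over all 8940 genes tested, 255 were called with all arrays, 140 without day 0 replicate 1 and 163 without day 0 replicate 2. Calls over all genes numbered 34 without day 0 replicate 3 and 86 with array weights. An unadjusted limma p under 0.05 was found for 1539 of the 8940 without day 0 replicate 3 and for 1460 with array weights. The median log2 change of the 36 moved far less, between 0.81 and 1.20 without single arrays.

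**Figure D4:**
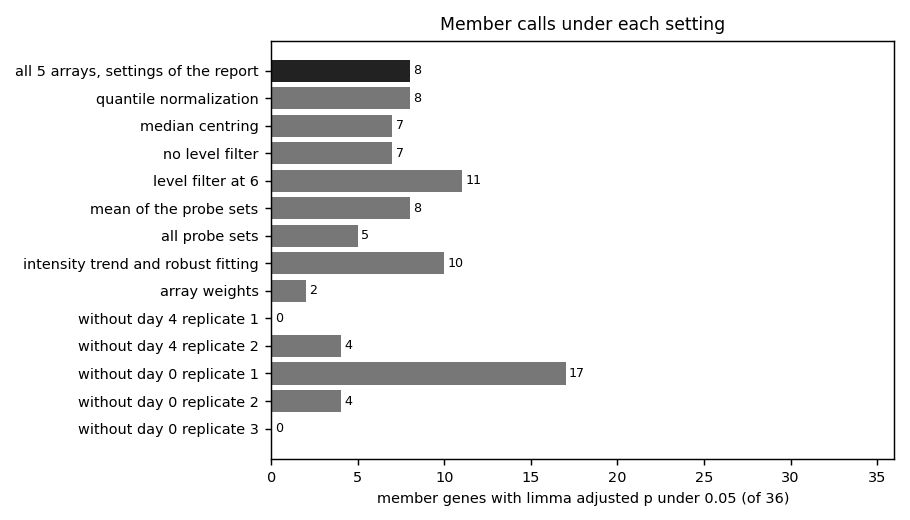
Number of the 36 genes with a limma adjusted p under 0.05 under each setting drawn (bars, axis from 0). The block on replicate number, which gave 24 calls, is not drawn. All called genes were higher at day 4. The count is 8 with all arrays and lies between 0 and 17 when 1 array is left out.

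Markers of other cells that the sort could hold moved in several directions. The mean log2 level of the 36 genes was 6.90 and 6.70 on the day 4 arrays, against 6.19, 5.56 and 5.69 on the day 0 arrays. Of 12 thymocyte and T cell markers past the filter 7 fell and 0 rose by the limma test, Rag1 (-4.01) and Satb1 (-3.04) among them. Of the called markers, Rag1, Ccr9 and Cd8b1 lay under the filter on both day 4 arrays. They entered the test only through the day 0 arrays, so nothing is read from the count of thymocyte calls. The list mean was 4.47 and 4.42 after irradiation, against 6.18, 5.53 and 5.97 in untreated cells. The order of the untreated arrays was thus the same for this list mean as for the mean of the 36 genes, while the difference between groups had the other sign. Gene by gene, that order was found for 7 of the 14 markers with a probe set and for 23 of the 36. Over all genes it was found for 2243 of 12393. Of 5 neutrophil markers past the filter 3 fell (S100a8, S100a9 and Camp), and 5 of the 12 with a probe set passed the filter at all. The day 4 values of these 3 lay under the filter, which they passed only through the day 0 arrays. Of the 12 neutrophil markers with a probe set, both day 4 arrays lay above for 1, both lay below for 4, and the groups overlapped for 7. Their median log2 change was -0.048. The neutrophil list mean was 3.64 and 3.65 after irradiation, against 4.16, 4.14 and 4.06 in untreated cells. Of 3 monocyte markers past the filter Cd14 rose (1.30). Of the 7 with a probe set, both day 4 arrays lay above for 2, both lay below for 1, and the groups overlapped for 4. The monocyte list mean was 5.33 and 5.30 after irradiation, against 5.23, 5.16 and 5.10 in untreated cells. Of 9 dendritic cell markers 1 fell (Ccr7), of 4 B cell markers 2 fell (Ms4a1 and Cd79b) and of 2 erythroid markers 1 fell (Alas2). Ms4a1, Cd79b and Alas2 also lay under the filter on both day 4 arrays and passed it only through the day 0 arrays. No marker passed in 4 lists: 0 of 18 endothelial (1 with an unadjusted limma p under 0.05), 0 of 6 lymphatic or sinusoidal endothelial (1), 0 of 11 thymic epithelial (5) and 0 of 12 fibroblast and pericyte markers (2). Over all 8940 genes tested, 1896 had an unadjusted limma p under 0.05. Single arrays bore on the marker calls. Of markers in all lists 15 were called with all arrays, 2 when day 4 replicate 1 was dropped, 5 when day 0 replicate 3 was, and 10 to 15 when another array was. The thymocyte falls numbered 0 when day 4 replicate 1 was dropped, 1 when day 0 replicate 3 was and 4 when day 4 replicate 2 was. Cd14 lost its call when either day 4 array or day 0 replicate 3 was dropped. The called markers of these lists are named after their values were seen. Epcam, the gene of the protein selected against in the sort, read 7.17 and 5.67 at day 4, against 7.27, 6.59 and 6.83 at day 0. As a measure of RNA integrity, the 3' actin control probe set exceeded the 5' one by 1.35 and 1.39 log2 units after irradiation, against 1.59, 1.65 and 1.43 in untreated cells. The part of other cells and of RNA quality in the values of the 36 genes was not tested.

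**Figure D5:**
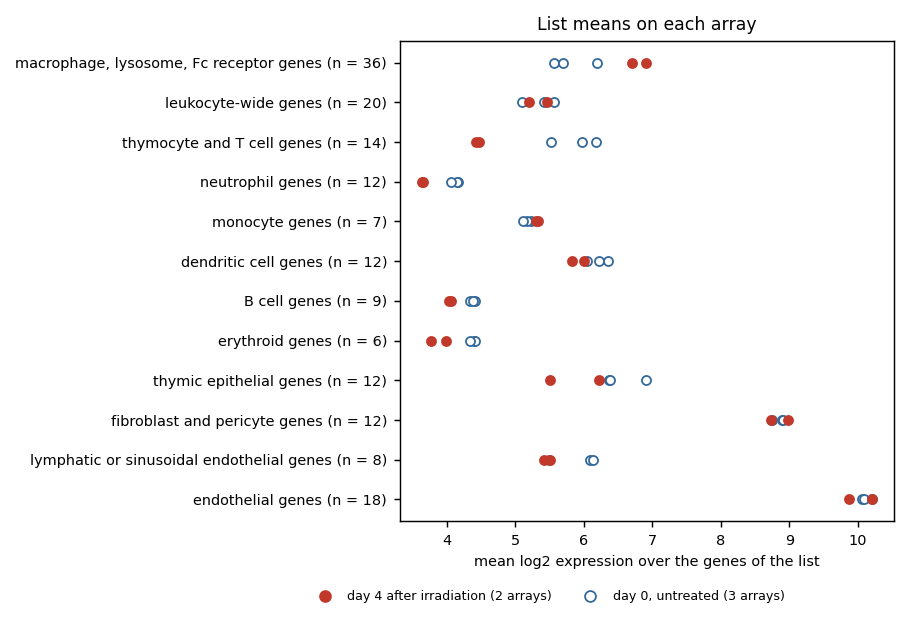
Mean log2 expression of each list on each array, with filled points for the 2 day 4 arrays and open points for the 3 day 0 arrays; n is the number of genes with a probe set. The 36 genes lie higher at day 4 (6.70 and 6.90 against at most 6.19), the thymocyte list lower (4.42 and 4.47 against at least 5.53), and the endothelial list overlaps.

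Genes of the same pathways outside the 36 were read from 7 lists grouped by known function, which were also chosen with earlier results of these arrays known. Of 149 with a probe set, 117 passed the filter, and 6 rose and 2 fell by the limma test over all genes, where 1.50% of genes tested were called higher and 1.35% lower. Of the called genes, Spic, Pirb, Clec4d and Cd163 lay above 4 on the day 4 arrays alone, and Ms4a1 on the day 0 arrays alone. These genes entered the test only through the group where they were high, so nothing is read from the count of calls. The median log2 change of the 149 was 0.081, against 1.01 for the 36.

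Of 19 other lineage regulators and growth factor receptors past the filter, 1 rose. It was Spic, a relative of PU.1 required in mice for the splenic macrophages that recycle iron, at 5.02 and 4.75 after irradiation, against 3.43, 3.37 and 3.31 in untreated cells. Its log2 change was 1.51 ± 0.12 (SE) with a limma adjusted p of 0.00566, and lay between 1.38 and 1.65 whichever array was left out. All of its day 0 values lay under the filter, so the size of that difference rests on background values. Spic entered the test only through the day 4 arrays, so nothing is read from its p-value. Its other probe set read 4.12 and 3.16 at day 4, against 2.57, 2.52 and 2.59 at day 0, a log2 change of 1.09. Of 15 other Fc receptor and ITAM or ITIM genes, 2 rose. Clec7a, which encodes the fungal receptor dectin-1, read 9.02 and 8.49 on the day 4 arrays, against 7.47, 6.26 and 6.62 on the day 0 arrays (limma adjusted p = 0.0474). Pirb, which encodes an inhibitory immunoglobulin-like receptor, read 4.76 and 4.61 at day 4, against 3.61, 3.21 and 3.51 at day 0 (limma adjusted p = 0.0159). Their log2 changes were 1.97 ± 0.36 (SE) and 1.24 ± 0.14 (SE), and all day 0 values of Pirb lay under the filter. Of 6 other oxidase genes 0 passed and 1 had an unadjusted limma p under 0.05, against 1896 of all 8940 genes tested. Of the 3 oxidase genes above, only Ncf4 was tested, and it did not pass.

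The rest of the lysosome was read in the same way. Of 44 other lysosomal enzyme and membrane protein genes, all past the filter, 0 passed the limma test. An unadjusted limma p under 0.05 was found for 4 of the 44, against 1896 of all 8940 genes tested. Both day 4 arrays lay above for 12, both lay below for 6, and the groups overlapped for 26. Their median log2 change was 0.024, against 1.09 for the 10 lysosome and phagosome genes chosen here, which were picked with their values known. Lyz1 (1.50) and Acp5 (1.46), the tartrate-resistant phosphatase of osteoclasts and macrophages, were the 2 lysosomal genes above 1, and are named after their values were seen.

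Of 12 other C-type lectin and scavenger receptor genes, 3 rose. Cd163, the hemoglobin scavenger receptor of macrophages, read 6.01 and 6.43 after irradiation, against 3.58, 2.78 and 3.63 in untreated cells, a log2 change of 2.89 ± 0.28 (SE) from a day 0 mean under the filter (limma adjusted p = 0.0113). Olr1, the receptor for oxidized low-density lipoprotein that endothelium also makes, read 5.52 and 5.64 on the day 4 arrays, against 4.12, 4.32 and 4.14 on the day 0 arrays, a log2 change of 1.39 ± 0.11 (SE), with a limma adjusted p of 0.00566. Clec4d, a lectin of myeloid cells named after its values were seen and under the filter on every day 0 array, differed by 1.04 ± 0.15 (SE) at a limma adjusted p of 0.0253. In contrast, 1 of 4 other MS4A genes past the filter fell and 0 rose: Ms4a1, the B cell antigen CD20, at -1.45 with day 4 values under the filter (limma adjusted p = 0.0124). Of 17 leukocyte-wide genes 1 fell and 0 rose. It was Coro1a, an actin regulator abundant in T cells, at 4.78 and 4.58 at day 4, against 6.98, 6.31 and 7.36 at day 0 (limma adjusted p = 0.0228).

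These leukocyte-wide genes shared the order of the untreated arrays with the selected genes, while their differences between groups were mixed. Day 0 replicate 1 was the highest untreated array for 15 of the 20 with a probe set (75.0%). Their median log2 change was -0.021, and both day 4 arrays lay above for 4, both below for 6, with overlap for 10. A log2 change above 1 was found for 3 of the 20, against 1.16% of all genes. These were Cd48 (1.49), Evi2a (1.35) and Itgb2 (1.001), named after their values were seen, and none was called. Of the 8 called genes outside the 36, the call was lost without day 4 replicate 1 for 7 (all but Spic), with limma adjusted p of 0.055 to 0.177. It was lost without day 0 replicate 3 for 5 (Clec7a, Pirb, Clec4d, Ms4a1 and Coro1a). Clec7a and Coro1a lost it without day 4 replicate 2, Clec7a and Clec4d without day 0 replicate 2, and Coro1a without day 0 replicate 1.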

How the data were processed

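RNA of sorted thymic cells, pooled from several mice an array, was measured on 5 Affymetrix mouse expression arrays, 2 of day 4 and 3 of day 0. The deposited values were log2 values, 1 per probe set and array, made by the authors with GCRMA, per the submitters' processing notes. GCRMA corrects background from probe sequences and normalizes arrays to a common distribution, which hides shifts shared by most genes. No version of it was stated, nor whether the 5 arrays were run in 1 batch. The number of arrays limits the precision, and p-values reflect the spread among pools alone, part of which may be technical.

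Probe sets with 1 annotated symbol (20380) were kept, and all 36 symbols matched RefSeq by Entrez identifier. Genes above a log2 value of 4 on at least 2 arrays (8940) were tested with limma 3.58.1 (lmFit, then eBayes; R 4.3.3), two-sided, with no covariate and 3 residual degrees of freedom. Benjamini-Hochberg adjustment ran over all of them, with calls at an adjusted p under 0.05. Levels and medians of the 36 genes were read without the filter. The fit was tested on simulated data.

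The 36 genes, the 7 lists of other pathway genes and the 10 lists of cell markers were chosen with earlier results of these data known. All 36 could be named. Of each other pathway list the rule named the called genes that changed most, 2 in each direction, and of each marker list the sort's own markers and the 2 largest changes. Alternatives were leaving out each array, blocking on replicate number, array weights, robust fitting with an intensity trend, averaging or separating a gene's probe sets, a filter at 6 or none, median centring and quantile normalization. Promoter windows were RefSeq's (GRCm38.p6).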

Additional observations from a re-analysis of the deposited data

How the results depend on the processing

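The median log2 change of the 36 genes lay between 0.808 and 1.20 over all alternatives that give one, against 1.01 as reported, and 0.822 over all 56 probe sets. Maf, Ncf4, Marco, Itgam and Ptprc changed sign under at least 1 alternative; a level filter leaves the value of a gene as it is by construction. With the mean of the probe sets, Fcgr2b gave 0.999 and Ms4a6d 1.67. The count of called genes over the whole array, 255 as reported, was 418 with an intensity trend and robust fitting and 86 with array weights, and lay between 11 and 341 without single arrays. The 8 called pathway genes outside the 36 became 3 with the filter at 6, where 73 were tested, and 5 with array weights, and between 1 and 9 without single arrays. Of the 36, 11 of 25 tested were called with the filter at 6. The causes were not tested, other than the smaller number of genes or arrays. A fit with 1 day 4 array assumes that this array varies like the day 0 arrays. The labels number the replicates in both groups but do not say that equal numbers share mice or a day. The deviations of replicate 1 in both groups correlated at 0.16 and those of replicate 2 at 0.078, across genes. With the replicate block, 481 genes were called over the whole array, 20 of the other pathway genes and 24 of the 36, and the median of the 36 was 0.86; day 0 replicate 3 has no partner, so these changes equal those without that array. Signal over background limits the oxidase genes, Maf and Itgam, whose values lie near or under a log2 value of 4.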
